A study of Arabidopsis thaliana with 6 samples.

Results

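The loci described here are MIR158A (AT3G10745), MIR158B (AT1G55591), MIR161 (AT1G48267) and MIR163 (AT1G66725), genes for miRNAs that are found in Arabidopsis and its close relatives but not across flowering plants. Members were the small RNA (sRNA) clusters, genomic intervals that collect aligned sRNA reads, that shared at least 1 base with the annotated span of these genes. Each gene had 1 such cluster, so that 4 of 17131 clusters were members. All 6 libraries came from rosette leaves of single Arabidopsis thaliana Col-0 plants collected at bolting. The 2 memory plants were first-generation msh1 memory plants, progeny of an MSH1-RNAi line that had lost the transgene and kept an altered growth habit. The 4 wild type plants were isogenic Col-0 controls, which the study's methods draw from negative RNAi transformation events. The MSH1 protein works in plastids and mitochondria. The methods of the study derive memory plants of this generation as full sibs out of a single parental plant, so memory and family cannot be told apart here. Library totals ranged from 7966799 to 18134284 counts, and the lowest total belonged to memory replicate 2.

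A miRNA gene is transcribed into a precursor that folds into a hairpin, and the Dicer-like enzyme DCL1 cuts the mature miRNA out of its stem. The mature strand guides an Argonaute protein to mRNAs with a complementary site, which are then cleaved or translated less. Conserved miRNAs mostly regulate transcription factors. Young miRNAs often arose by inverted duplication of a gene of the family that they now target, and some of their hairpins still resemble that family.

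miR163 is unusual among plant miRNAs because it is longer than the standard length. Its known targets are methyltransferase genes of the SABATH family, which act on small molecules such as salicylic acid relatives, and some of them lie next to MIR163 itself. miR161 comes in overlapping forms from the same arm of the MIR161 hairpin, named miR161.1 and miR161.2. Both target mRNAs of pentatricopeptide repeat (PPR) proteins, which bind RNA in mitochondria and plastids. The annotation lists both MIR158 genes as miRNAs of unknown function.

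The mature sequences are shown to show which loci share a seed (bases 2 to 8, in capitals) and which do not. They were read from the RefSeq annotation and genome of TAIR10.1, 5′ to 3′.
miR158a: uCCCAAAUguagacaaagca
miR158b: cCCCAAAUguagacaaagca
miR161.1: uGAAAGUGacuacaucggggu
miR161.2: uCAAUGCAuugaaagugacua
miR163: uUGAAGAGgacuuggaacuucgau

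miR158a and miR158b shared the seed CCCAAAU and differed at the first base alone, with a common run of 19 bases. The gene note of MIR158B gives a form that starts 1 base earlier, whose seed would be shifted by that base. The seeds of miR161.1, miR161.2 and miR163 were shared with no other member. miR161.1 and miR161.2 are cut from overlapping positions and had a run of 12 bases in common, which lies at the 3′ end of miR161.2 and at the 5′ end of miR161.1. miR163 was 24 bases long, against 20 or 21 bases for the others. Each of these mature sequences occurred once in chromosomes 1 to 5, so a full-length read had a single exact place in the genome. A read trimmed to the 19 bases that both miR158 forms hold could be placed at either MIR158 gene.

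The MIR158 hairpins are shown with the annotated mature strands in capitals, since their likeness bears on how reads were placed.
MIR158A: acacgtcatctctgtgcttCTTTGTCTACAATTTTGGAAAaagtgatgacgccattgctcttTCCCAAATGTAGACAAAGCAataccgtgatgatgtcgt
MIR158B: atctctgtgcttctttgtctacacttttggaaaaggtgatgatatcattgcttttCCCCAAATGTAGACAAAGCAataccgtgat

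The hairpin of MIR158B aligned over its 85 bases with MIR158A, and 78 of these bases (91.8%) were identical. The first capital run of MIR158A is miR158a-5p, the strand from the other arm. The annotation gave no such strand for MIR158B. The longest run shared by the hairpins was 29 bases.

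All 4 clusters were wider than the hairpins, and that at MIR158B did not reach the hairpin's 3′ end. Cluster_7526 at MIR158A (chromosome 3, 3365508 to 3366629, 1122 bases) held the whole hairpin (3366331 to 3366430, minus strand) and 232 bases of ASD1, a gene for an arabinofuranosidase. Cluster_2588 at MIR161 (chromosome 1, 17823566 to 17825909, 2344 bases) held the whole hairpin (17825685 to 17825857, plus strand), and the rest of it lay outside annotated genes. Cluster_3599 at MIR163 (chromosome 1, 24883787 to 24886064, 2278 bases) held the hairpin (24884066 to 24884396, plus strand) and 1384 bases of LIG6, a DNA ligase gene. Cluster_3036 at MIR158B (chromosome 1, 20772165 to 20772295, 131 bases) held 78 of the 85 hairpin bases (20772218 to 20772302, plus strand), including all of miR158b. All of these coordinates are TAIR10. The tables give a single count per cluster with no strand or read length, so the part of a count that is mature miRNA could not be separated.

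The first question was how abundant the loci were. MIR161 had the most counts of the members, MIR158A and MIR163 followed, and MIR158B was near the limit of detection. By mean CPM (counts per 1000000 of the TMM-scaled library size), MIR161 ranked 10, MIR158A 18, MIR163 26 and MIR158B 202 among the 256 clusters at annotated MIR genes. Among all 17131 clusters the ranks were 28, 64, 87 and 10504 in the same order of loci.

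The order also held per kilobase of cluster, with mean levels of 1562, 906, 263 and 19.1 CPM per kb at MIR161, MIR158A, MIR163 and MIR158B. MIR161 was above MIR158A in 6 of 6 libraries on this scale, but their ranges over the libraries overlapped (994 to 2360 and 804 to 1101 CPM per kb). MIR163 lay between 192 and 388 CPM per kb, below the range of MIR158A and above that of MIR158B, which ended at 42.3 CPM per kb. Since a miRNA locus gives most of its reads from a few positions, these values depend on how wide the authors' intervals were.

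**Figure D1:**
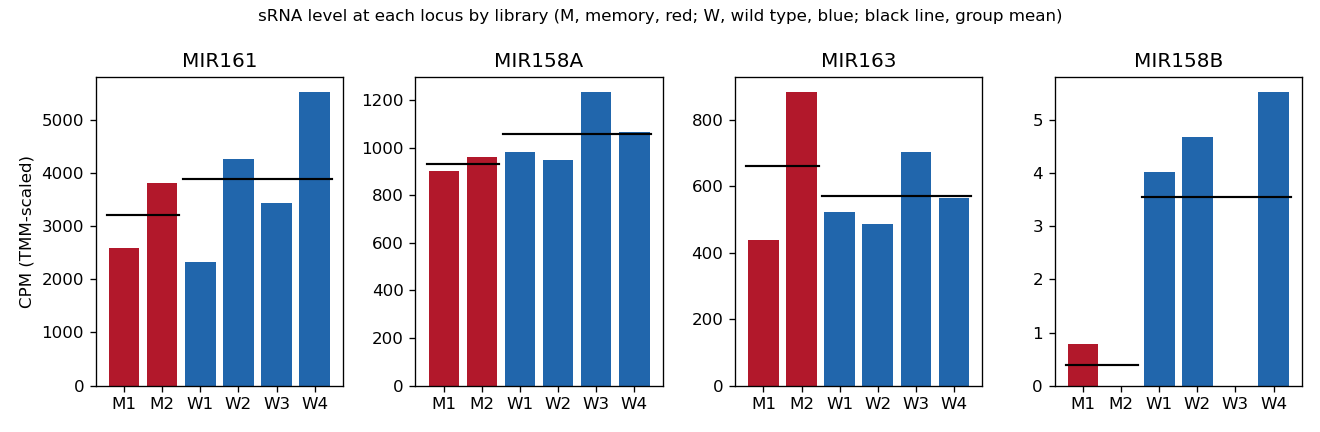
Level of sRNA in CPM (y axis, linear, from 0, a scale of its own for each locus) at MIR161, MIR158A, MIR163 and MIR158B in each library, with memory plants in red (M1, M2), wild type plants in blue (W1 to W4) and group means as black lines. At MIR163 the memory plants lie on either side of the wild type plants on this TMM-scaled level, at 437 and 885 CPM. At MIR158B a library of each group is at 0.

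MIR161 held 33352 and 23382 counts in memory replicates 1 and 2, against 34645, 59274, 39503 and 62927 counts in wild type replicates 1 to 4. On the CPM scale these were 2599 and 3813 CPM in memory, against 2330, 4266, 3432 and 5532 CPM in wild type. Both memory plants lay within the range of wild type, where the highest plant was 2.37 times the lowest.

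The memory mean was 3206 ± 859 CPM (SD, n = 2) against 3890 ± 1352 CPM for wild type (SD, n = 4). Memory over wild type gave a log2 fold change of -0.28 ± 0.41 (SE), with an approximate 95% interval of -1.26 to 0.70. edgeR's quasi-likelihood test, with Benjamini-Hochberg adjustment over all tested clusters, gave an adjusted p of 0.829. The interval reached from a level 0.417 times that of wild type to 1.63 times, so a change in either direction within that span is compatible with these values.

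MIR158A was the steadiest of the loci on the CPM scale. It held 11580 and 5906 counts in memory, against 14634, 13178, 14216 and 12113 counts in wild type. These were 902 and 963 CPM in memory, against 984, 948, 1235 and 1065 CPM in wild type. In CPM memory replicate 1 lay below every wild type plant, and memory replicate 2 lay within their range. Over all 6 libraries the highest CPM was 1.37 times the lowest. As a share of library counts MIR158A ran from 0.0741% to 0.140%, a relative spread similar to that of MIR163 (0.0428% to 0.0797%). By this share memory replicate 2 lay below every wild type plant, and memory replicate 1 lay within their range. Its fitted log2 fold change was -0.18 ± 0.19 (SE; 95% interval -0.65 to 0.28; edgeR quasi-likelihood adjusted p = 0.747).

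MIR163 held 5609 and 5425 counts in memory, against 7765, 6776, 8091 and 6440 counts in wild type. The levels were 437 and 885 CPM in memory, against 522, 488, 703 and 566 CPM in wild type. On the CPM scale memory replicate 1 was below all wild type plants and memory replicate 2 above all of them. The memory plants differed 2.02-fold from each other on this scale, against 1.44-fold between the highest and lowest wild type plant. The TMM factors were 1.06 and 0.770 in memory replicates 1 and 2, and 0.820 to 1.22 in wild type. As a share of library counts, both memory plants lay within the wild type range (0.0464% and 0.0681%, against 0.0428% to 0.0797%).

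The memory mean was 661 ± 317 CPM (SD, n = 2) against 570 ± 94.4 CPM for wild type (SD, n = 4). The fitted log2 fold change was 0.21 ± 0.31 (SE; 95% interval -0.55 to 0.98; edgeR quasi-likelihood adjusted p = 0.832). Memory replicate 1 alone gave -0.39 and memory replicate 2 alone gave 0.65, so its direction depended on which memory plant was used. The edgeR quasi-likelihood adjusted p was 0.870 and 0.307 in these fits, each with 1 memory plant assumed to vary like wild type. Memory replicate 2 also had the highest share of counts at tRNA genes (22.5%, against 12.1% in memory replicate 1 and 14.5% to 18.2% in wild type). It had the lowest share at snoRNA genes (0.801%, against 3.21% in memory replicate 1 and 2.49% to 5.22% in wild type). The part of these in the MIR163 value was not tested.

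MIR158B was detected in 4 of 6 libraries. It held 10 and 0 counts in memory replicates 1 and 2, against 60, 65, 0 and 63 counts in wild type replicates 1 to 4. A library of each group was at 0, so the groups overlapped. The levels were 0.779 and 0 CPM in memory and 4.03, 4.68, 0 and 5.54 CPM in wild type. A count of 0 allows up to 3 counts, which is 0.489 CPM in memory replicate 2 and 0.261 CPM in wild type replicate 3. The limit in wild type replicate 3 lies below the level of the 3 other wild type plants.

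The fitted log2 fold change at MIR158B was -2.94 ± 1.72 (SE; 95% interval -7.12 to 1.23; edgeR quasi-likelihood adjusted p = 0.566). This value depends on how a count of 0 is handled, and the difference was within the spread of wild type. Without wild type replicate 3 it was -3.36, with an adjusted p of 0.621 (edgeR quasi-likelihood).

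The MIR158 loci were also compared within each library, which needs no scaling. MIR158B made up 0.0863% of the counts at both MIR158 loci in memory replicate 1 (95% Wilson interval 0.0469% to 0.159%). In memory replicate 2 it was 0 of 5906 counts, which allows a share of up to 0.0508%. The wild type shares were 0.408%, 0.491% and 0.517% in replicates 1, 2 and 4. In wild type replicate 3 it was 0 of 14216 counts, which allows up to 0.0211%. The 95% Wilson intervals of wild type replicates 1, 2 and 4 together ran from 0.317% to 0.661% and reached none of the other 3 libraries. Wild type replicate 3 was thus below the other wild type plants, as were both memory plants. Intervals and limits cover counting error alone, since PCR copies without molecular identifiers are not independent molecules.

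By edgeR's quasi-likelihood test 0 of the 4 members had an adjusted p below 0.05, and 0 had an unadjusted p below 0.05. As a background, 1 of 15659 tested clusters was called (0.00639%), and 10.5% had an unadjusted p below 0.05. DESeq2 also called 0 members, against 1.92% of the clusters to which it gave an adjusted p, and the edgeR likelihood ratio test called 0, against 0.875% of all tested clusters. Memory and wild type values overlapped at all 4 members, whereas they did not overlap at 21.1% of all 17131 clusters (11.5% lower and 9.65% higher in memory). The median log2 fold change was -0.23 over the 4 members and -0.027 over all tested clusters.

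**Figure D2:**
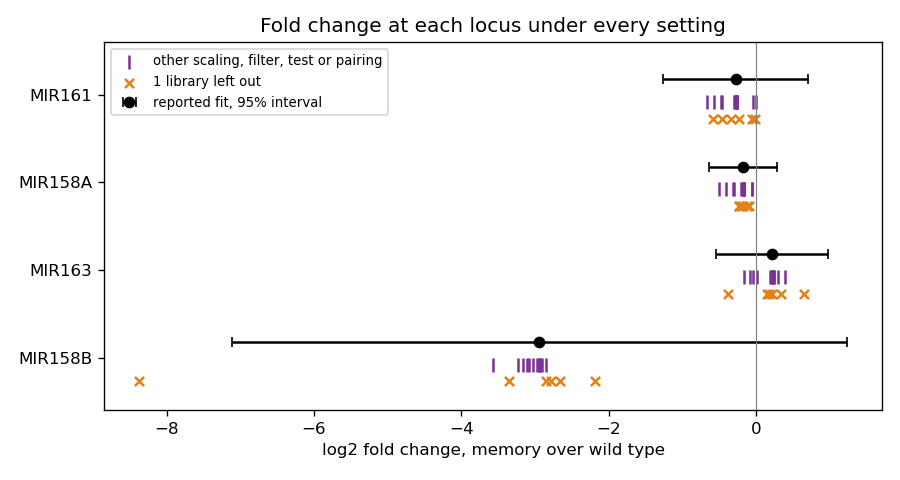
Log2 fold change of memory over wild type (x axis) at each locus, with the reported fit and its approximate 95% interval (black), fits with another scaling, filter, test or pairing (purple) and fits without 1 library (orange). The interval includes 0 at each locus, at MIR158A it is the narrowest (-0.65 to 0.28), and at MIR163 the single fits lie on both sides of 0.

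Shares of the library were then compared, since they use no scaling factor. The 4 loci together held 0.427% ± 0.0127 of all memory counts (SD, n = 2) and 0.598% ± 0.2 of all wild type counts (SD, n = 4; exact two-sided permutation p = 0.4). With 2 libraries against 4, no difference can give a p below 0.133 in this test. MIR161 made up most of this share, with 0.285% ± 0.0126 in memory and 0.424% ± 0.178 in wild type (exact p = 0.4). MIR158A had 0.0849% ± 0.0153 in memory and 0.113% ± 0.0244 in wild type (exact p = 0.267). MIR163 had 0.0572% ± 0.0154 in memory and 0.0608% ± 0.0151 in wild type (exact p = 0.933). Memory and wild type overlapped in each of these shares.

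Shares of the counts at MIR genes gave a similar picture, although 2 of the 256 MIR-gene clusters lie over ribosomal RNA genes and took 79.6% of those counts. With these 2 clusters left out, a choice made after the data were seen, the 4 loci held 4.76% ± 0.608 of the MIR-gene counts of memory (SD, n = 2) and 6.24% ± 1.66 of those of wild type (SD, n = 4; exact two-sided permutation p = 0.4). With the clusters kept, the shares were 0.916% ± 0.0852 in memory and 1.36% ± 0.459 in wild type (exact p = 0.4). MIR-gene clusters without those over rRNA genes held 8.05% to 10.5% of each library.

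Ratios between loci showed which of them kept a constant proportion. Counts at MIR158A were 2.06 and 1.09 times those at MIR163 in memory replicates 1 and 2, against 1.88, 1.94, 1.76 and 1.88 times in wild type. The wild type plants thus lay close together, memory replicate 1 lay just above them and memory replicate 2 well below.

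The mean log2 ratio of MIR158A to MIR163 was 0.58 ± 0.65 for memory (SD, n = 2) and 0.90 ± 0.062 for wild type (SD, n = 4; exact two-sided permutation p = 0.667, and 0.933 after adjustment over 3 ratios). The memory plants fell on opposite sides of wild type, so the difference in means was smaller than the spread within memory.

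MIR161 was not in a constant proportion to either of them. Its counts were 5.95 and 4.31 times those at MIR163 in memory, against 4.46, 8.75, 4.88 and 9.77 times in wild type. They were 2.88 and 3.96 times those at MIR158A in memory, against 2.37, 4.50, 2.78 and 5.19 times in wild type. In both ratios wild type replicates 2 and 4 were high and wild type replicates 1 and 3 were low. The exact two-sided permutation p was 0.533 for MIR161 over MIR163 and 0.933 for MIR161 over MIR158A, and 0.933 for both after adjustment over the 3 ratios.

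**Figure D3:**
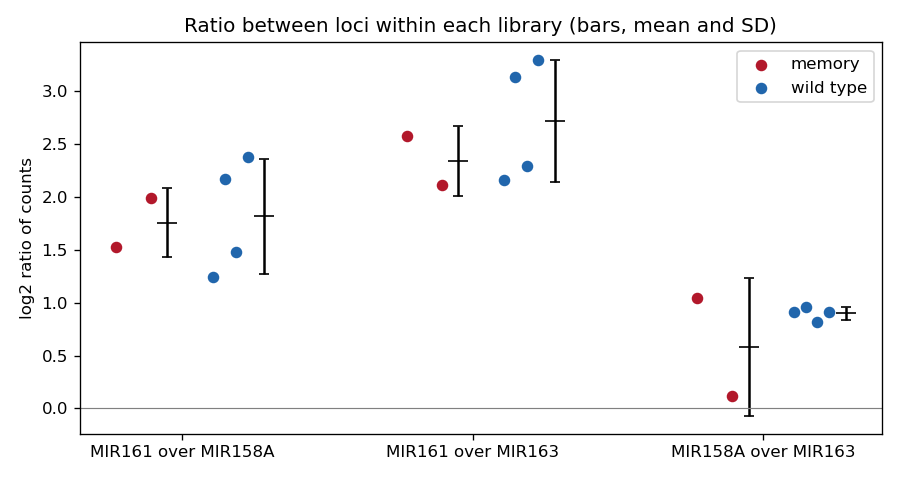
Log2 ratio of counts between pairs of loci within each library (y axis), with memory plants in red, wild type plants in blue and the mean and SD of each group in black. The ratio of MIR158A to MIR163 spans 0.12 to 1.05 in the memory plants and 0.81 to 0.96 in the wild type plants, and both ratios with MIR161 spread widely in wild type.

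The coefficient of variation in wild type was 34.7% at MIR161, 12.1% at MIR158A, 16.6% at MIR163 and 68.9% at MIR158B. The 55 other MIR-gene clusters with a mean of at least 100 CPM, with those over rRNA genes left out, had a median of 19.3% and a middle range of 11.6% to 28.0%. MIR161 was thus more variable between wild type plants than the middle range of other abundant MIR genes, and MIR158A and MIR163 lay inside it. This is a description of 4 plants and was not tested.

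Patterns over the 6 libraries were compared with those of 230 other MIR-gene clusters with a mean of at least 1 CPM. By Pearson correlation of log2 CPM, MIR163 was most like MIR166c (r = 0.99), MIR396a (r = 0.99) and MIR168a (r = 0.98). MIR158A was most like MIR157a (0.96), MIR172b (0.90) and MIR165b (0.86). MIR161 was most like MIR162a (0.93), MIR841b (0.88) and MIR1888b (0.88), and MIR158B was most like MIR780 (0.94), MIR8165 (0.90) and MIR396b (0.90). Among the members themselves r lay between -0.66 (MIR158B with MIR163) and 0.43 (MIR158A with MIR163). MIR158A and MIR158B, which share a seed, had r = -0.28. With 6 points that share library and scaling, and the best of 230 chosen each time, these values only describe the libraries.

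Neighbouring clusters were read to see whether the surroundings of a locus moved with it. The 8 nearest clusters lay 103 to 23815 bases away. None had an adjusted p below 0.05 (edgeR quasi-likelihood), and 3 had an unadjusted p below 0.05, against 10.5% of all tested clusters. Memory and wild type CPM values did not overlap at 4 of the 8, against 21.1% of all clusters, with 3 lower and 1 higher in memory. Cluster_2587, which ended 103 bases before the MIR161 cluster, held 4 and 2 counts in memory, against 15, 12, 13 and 8 in wild type. Cluster_2589, 5155 bases after it, held 380 and 245 counts in memory, against 275, 305, 267 and 273 in wild type. On the CPM scale the groups did not overlap at either neighbour, and they lay in opposite directions (log2 fold change of -1.51 ± 0.47 and 0.67 ± 0.18, SE). Their adjusted p values were 0.446 and 0.417 (edgeR quasi-likelihood).

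At MIR158A, Cluster_7527 began 1181 bases after the cluster of the miRNA and overlapped AT3G10750. It held 12 and 2 counts in memory, against 6, 76, 77 and 67 in wild type, so wild type replicate 1 lay with the memory plants. Its adjusted p was 0.482 (edgeR quasi-likelihood). The pattern was not that of MIR158A, where the same library had 984 CPM.

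At MIR158B the nearest cluster before it, Cluster_3035, held 32 and 10 counts in memory, against 66, 54, 48 and 50 in wild type, so memory was lower with no overlap on the CPM scale. Its log2 fold change was -1.01 ± 0.30 (SE; edgeR quasi-likelihood unadjusted p = 0.0141, adjusted p = 0.438), below 0 as at MIR158B. The cluster was present in all 6 libraries, including both that had 0 counts at MIR158B. The clusters before and after MIR163 had adjusted p values of 0.557 and 0.960 (edgeR quasi-likelihood). The one before MIR163, Cluster_3598, was lower in memory with no overlap on the CPM scale (log2 fold change -0.40). Per total count its groups overlapped, since memory replicate 1 (84 of 12099251) lay above wild type replicate 1 (120 of 18134284).

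The targets were examined next, since sRNA can also arise from mRNAs that a miRNA cuts. Whether sRNA at the listed miR163 and miR161 target genes arose from cutting by these miRNAs was not tested. The miR163 list held 5 SABATH genes, and 3 of them (AT1G66690, PXMT1 and AT1G66720) lie on chromosome 1 before MIR163. Without gaps, and with a G:U pair counted as a mismatch, the best site in each gene had 5 to 7 mismatches with miR163. With 1 base of miR163 left unpaired, the sites of AT1G66690 and PXMT1 matched the rest of miR163 with 0 differences, that of AT1G66720 with 1 and those of FAMT and AT3G44870 with 2 each, and all of these differences were G:U pairs. The sites are shown as mRNA-strand DNA of TAIR10.1, with the bases that differ in the scoring without gaps in capitals, because they show how alike the genes are here.
PXMT1: CATCGagttccaagtcctcttcaa
AT1G66720: CATCGagttccaGgtcctcttcaa
FAMT: aATCGagttccaagtTTtcttcaa
AT3G44870: TATCGagttccaagtTTtcttcaa

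The site of PXMT1 lies at 24874307 to 24874330 and that of AT1G66720 at 24881603 to 24881626 on chromosome 1. Those of FAMT (16380055 to 16380078) and AT3G44870 (16382618 to 16382641) lie on chromosome 3. All of these sites lie in coding exons. The capitals among the first bases of each site come from the unpaired base of miR163, and those towards the middle are G:U pairs. The site of AT1G66690 was identical to that of PXMT1.

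sRNA clusters were found at 1 of the 5 listed SABATH genes. Cluster_9698 at FAMT (AT3G44860, which encodes a farnesoic acid methyltransferase) held 78 and 37 counts in memory, against 58, 41, 49 and 46 in wild type. The memory mean was 6.06 ± 0.0309 CPM (SD, n = 2) and the wild type mean 3.79 ± 0.577 CPM (SD, n = 4). On this TMM-scaled level the groups did not overlap, as at 21.1% of all clusters. Per total count they did overlap, since memory replicate 2 (37 of 7966799) lay below wild type replicate 3 (49 of 10151442). Its fitted log2 fold change was 0.68 ± 0.26 (SE; edgeR quasi-likelihood unadjusted p = 0.0388, adjusted p = 0.457).

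The miR161 list held 18 PPR genes, taken from the clade that holds the known miR161 targets. Of these, 17 had a site for miR161.1 or miR161.2 with at most 4 mismatches. AT1G64580 had no such site, with 7 and 6 mismatches. Sites with at most 4 mismatches were found in 0.124% of 27444 protein-coding genes for miR161.1 and in 0.168% for miR161.2. Since the list was chosen for its known targets, these shares are a description and no test of it. The sites in AT1G63130 and AT1G62914 are shown with mismatches in capitals (no gaps, G:U pairs counted as mismatches), because these genes have abundant clusters and their sites for both forms overlap in the way the forms do.
AT1G63130, miR161.1: aTccAAatgtagtcactttca
AT1G63130, miR161.2: tagtcactttcaGCgcattga
AT1G62914, miR161.1: aTccAAatTtagtcactttca
AT1G62914, miR161.2: tagtcactttcaGCgcattga

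On chromosome 1 the AT1G63130 sites span 23413821 to 23413841 and 23413830 to 23413850, and the AT1G62914 sites span 23302534 to 23302554 and 23302543 to 23302563. All 4 lie in coding exons. The block that both forms pair with was identical in these genes, and the mismatches lay on either side of it.

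Of the 18 PPR genes, 16 had clusters, 19 in all, and all 19 were tested. None was called in either direction, and 2 had an unadjusted p below 0.05 (edgeR quasi-likelihood), both lower in memory, against 10.5% of all tested clusters. The log2 fold change was below 0 at 15 clusters and above 0 at 4, against 8191 below and 7468 above over all tested clusters. The median was -0.37, against -0.027 over all tested clusters. Many of the 19 share sequence with other places in the genome: the share of 21-base windows that occur more than once in chromosomes 1 to 5 had a median of 51.9% and ranged from 0.310% to 99.6%. Reads from such windows have several exact places, and their part in these counts was not tested.

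The 5 clusters with the highest mean were those at AT1G63130, AT1G63080, AT1G63150, AT1G62914 and AT1G63400. Memory and wild type CPM values did not overlap at 3 of the 19 clusters, all lower in memory. The share over all clusters was 21.1% (11.5% lower and 9.65% higher in memory). Cluster_3386 at AT1G62914 held 2742 and 1060 counts in memory, against 4276, 6234, 4206 and 3559 in wild type. It had 193 ± 28.8 CPM in memory and 354 ± 71.2 CPM in wild type (SD, n = 2 and n = 4), with no overlap between the groups. The fitted log2 fold change was -0.87 ± 0.23 (SE; edgeR quasi-likelihood adjusted p = 0.413). With DESeq2 the adjusted p was 0.0364, and DESeq2 called 1 cluster of this list, against 1.92% of all clusters with an adjusted p. Cluster_3402 at AT1G63130 had 379 ± 74.4 CPM in memory and 561 ± 103 CPM in wild type, again with no overlap (log2 fold change -0.57 ± 0.24, edgeR adjusted p = 0.484). This cluster also holds 185 bases of MIR5652, which is annotated on the other strand, so its counts cannot be assigned to either gene and it stands in both lists. The adjusted p was 0.593 at AT1G63080 and 0.621 at AT1G63150, with log2 fold changes of -0.45 and -0.37. AT1G63400 had a log2 fold change of 0.63 and an adjusted p of 0.574. Its memory plants differed widely, with 2483 and 2912 counts in libraries of unequal depth.

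Clusters at other MIR genes showed how the members stood among miRNA loci. Of 74 tested clusters at conserved MIR genes, 0 were called, 4 were higher and 2 lower at an unadjusted p below 0.05, and the median log2 fold change was 0.0057. Of 160 tested clusters at the remaining MIR genes, 0 were called, 5 were higher and 12 lower at an unadjusted p below 0.05, and the median was -0.059. Over all 15659 tested clusters, 770 were higher and 871 lower at an unadjusted p below 0.05 (edgeR quasi-likelihood), together 10.5%. The median over all of them was -0.027. DESeq2 called 2 clusters in each of these lists, against 1.92% of all clusters with an adjusted p, and the likelihood ratio test called 1 in each, against 0.875%. The conserved MIR genes of the highest mean CPM were MIR398a and MIR398c, whose miRNA responds to copper supply, MIR167a, whose miRNA targets auxin response factors, and MIR159a and MIR159b, whose miRNAs target MYB transcription factors. Among the remaining MIR genes they were MIR5642a and MIR5642b, both over rRNA genes, MIR5636, MIR391 and MIR8175. The members at -0.28, -0.18 and 0.21 lay inside the middle range of all tested clusters (-0.39 to 0.31), and MIR158B at -2.94 lay outside it.

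**Figure D4:**
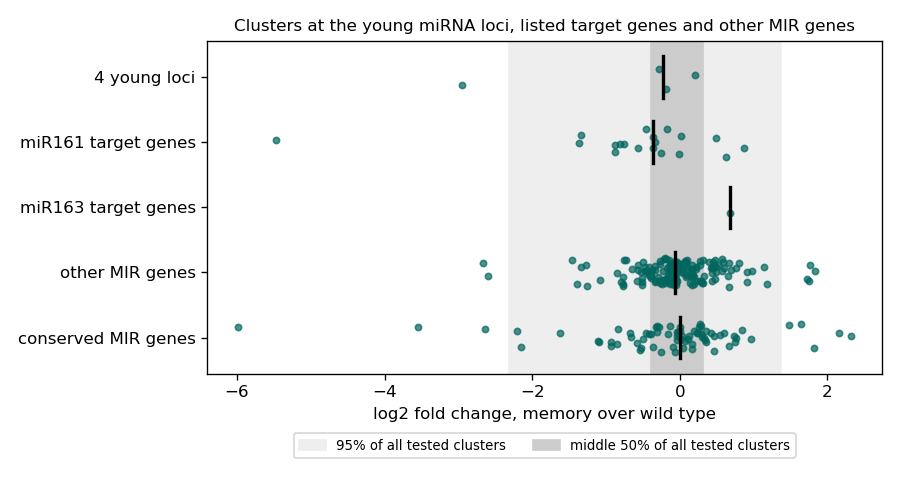
Log2 fold change of memory over wild type (x axis) for each tested cluster at the 4 young loci, the miR161 and miR163 target genes and the other and conserved MIR genes, with list medians as black lines and, in grey, the ranges that hold 50% and 95% of all tested clusters. The medians are -0.23 for the young loci, -0.37 for miR161 target genes, -0.059 for other MIR genes and 0.0057 for conserved ones, and the miR163 list has 1 cluster, at 0.68.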

How the data were processed

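sRNA was sequenced from rosette leaves of 2 memory and 4 wild type plants. The deposited values are raw counts, whole numbers for every cluster and library. Alignment to TAIR10 was done by the authors with ShortStack, library by library, and the alignments were merged with SAMtools. ShortStack places a read with several sites by the unique reads nearby. How clusters were defined and counted is not given in the sources used here.

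Genes, hairpins and sequences came from the RefSeq annotation of TAIR10.1, and 0 clusters passed the end of a chromosome. All clusters were tested with edgeR 4.0.16 (R 4.3.3): TMM normalization, filterByExpr at its defaults, quasi-likelihood test of group alone, Benjamini-Hochberg adjustment, threshold 0.05. The filter kept 15659 clusters and left out 1472. The SE is the absolute log2 fold change divided by the square root of F, and the 95% interval uses it with a t distribution, so both are approximate. Shares and ratios were compared with exact permutation tests over 15 splits, with p taken as 2 times the smaller one-sided p. The permutation test was written in numpy 2.4.6, and Wilson intervals came from scipy 1.17.1. The edgeR test was tried on simulated counts, and the permutation test on values with a known answer. DESeq2 1.42.0, other scalings, filters and left-out libraries were alternatives.

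Members and lists were chosen with earlier results of these data known. The text names all members. In target lists it names at most 5 genes of the highest mean CPM, for each member the 3 MIR genes of the most similar pattern, and of other MIR genes the 5 of the highest mean CPM in each list. Genes named for an alternative's call and the clusters at AT1G63070 were chosen after their values were seen. The miR163 sites with 1 unpaired base and the count of repeated windows were also added after the results were seen. The replicate labels say biological replicate, and each library is a single plant. The conserved list was a chosen set of families numbered from MIR156 to MIR408, without those of the members, and treated here as conserved. How widely each of these families is shared among flowering plants was not tested.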

Additional observations from a re-analysis of the deposited data

Results flagged for a closer look

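The spread over the 4 wild type libraries was examined for 45 values, and in 1 of them a single library stood apart, where about 2.25 would by chance. It was Cluster_3399 at the PPR gene AT1G63070, a listed miR161 target. It held 14 and 9 counts in memory, against 0, 0, 0 and 148 in wild type replicates 1 to 4. Wild type replicate 4 had 13.0 CPM and the other 3 wild type libraries had 0. The same gene holds Cluster_3398, with 0 and 4 counts in memory, against 307, 351, 3 and 3 in wild type, so the libraries that were high at one cluster were low at the other. Of the 21-base windows, 99.6% in Cluster_3399 and 59.8% in Cluster_3398 occurred more than once in chromosomes 1 to 5, and the part of read placement in these values was not tested.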

How the results depend on the processing

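No setting called a member, and the log2 fold change stayed below 0 in every setting that gave a value at MIR158A (-0.51 to -0.054, 19 settings), MIR161 (-0.66 to -0.0052, 19 settings) and MIR158B (-8.37 to -2.18, 18 settings). The cluster at MIR158B could not be fitted with at least 10 counts in every library. MIR163 was -0.087 with library size alone, -0.16 with the counts at MIR genes as library size and -0.039 with those counts without rRNA clusters, the last an alternative chosen after the data were seen. These scalings gave medians over all clusters of -0.23, -0.33 and -0.13, against -0.027 in the reported fit, and relative to that median MIR163 was 0.14, 0.17 and 0.088, against 0.24. Relative to it, MIR161 was 0.092 without memory replicate 1 and 0.026 with the replicate block, against -0.25. MIR163 was -0.33 without memory replicate 2. DESeq2 called 2 conserved and 2 other MIR clusters (MIR399b and MIR167a, MIR5664 and MIR5996/MIR841a) and 1 miR161 target cluster. The likelihood ratio test called 1 and 1 (MIR399b and MIR5664). Over all clusters DESeq2 called 1.92% of those with an adjusted p and the likelihood ratio test 0.875%. The difference in the library share of MIR163 was 0.000814 percentage points without the 10 clusters with most counts, and that in its MIR-gene share was 0.00868 without the MIR cluster with most counts. The cause was not tested.

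Leaving out single libraries gave log2 fold changes of -0.39 to 0.65 at MIR163, -0.23 to -0.10 at MIR158A, -0.59 to -0.017 at MIR161 and -8.37 to -2.18 at MIR158B. The value of -8.37 came without memory replicate 1, where the memory library left held 0 counts, and depends on the prior count. For MIR163 the difference in library share ran from -0.0144 to 0.00731 percentage points and that in MIR-gene share from -0.0438 to 0.0139. The difference in log2 ratio ran from -0.29 to 0.17 for MIR161 over MIR158A and from -0.78 to 0.15 for MIR158A over MIR163. Fits with 1 memory library left take their spread from wild type.

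With a replicate block on the 4 libraries numbered 1 and 2, the log2 fold change was -0.055 at MIR158A, -3.58 at MIR158B, -0.0052 at MIR161 and 0.30 at MIR163, against -0.054, -3.24, -0.044 and 0.38 in the same libraries without it, with 0 members called in both fits. Same-numbered libraries had deviations with a correlation of -0.059, a value that both pairs share because each group has 2 libraries here, so it gave no sign that the numbers pair the plants. Neighbour and target clusters such as Cluster_2587, Cluster_7527, Cluster_3398 and Cluster_3399 held few counts in some libraries. Among the members, low counts were a limit at MIR158B alone, where 3 counts were 0.202 to 0.489 CPM. In wild type replicate 3 this limit was 0.261 CPM, below the 4.03, 4.68 and 5.54 CPM of wild type replicates 1, 2 and 4.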
